A study of Arabidopsis thaliana with 16 samples.

Results

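The comparison set germinating *sweet1* seeds treated with 5 µM abscisic acid (ABA) against germinating *sweet1* seeds that received neither ABA nor glucose (Glc). It used 8 of the 16 libraries of the series, 4 of ABA and 4 of control, which were chosen by their genotype and treatment labels and by no measured value. All 8 libraries came from whole seeds of the *sweet1* line, a T-DNA insertion line in the Col-0 background that carries its insertion in *SWEET1*. After 3 d of imbibition in the cold the seeds were grown in constant light, then moved to liquid MS medium with or without ABA for 6 h and collected at 30 h after imbibition. The groups were therefore ABA, *sweet1* with 5 µM ABA for 6 h, and control, *sweet1* with the medium alone for 6 h, with 4 biological replicates each. Wild-type libraries were not analysed here, so the values below do not tell how far this response is particular to the mutant, which is represented by 1 insertion line.

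ABA is the hormone that holds seeds dormant and arrests germination. Bound ABA turns the PYR1 and PYL receptors into inhibitors of the clade A protein phosphatases 2C, which frees SnRK2 kinases to phosphorylate bZIP factors such as ABI5 and the ABFs. These factors bind the ABA-responsive element (ABRE), a promoter motif with an ACGTG core, and in seeds they are known for turning on genes of late embryogenesis, whose products protect cells as they lose water.

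The files give 1 value per gene under the header TPM, a unit that scales reads by transcript length and by library. The values of a library summed to 1001029 to 1053766 with ABA and to 975845 to 1012836 in the control, so they had been rescaled after the usual TPM step. The depth of each library is unknown, because no read counts were used here, and errors were taken from the 4 libraries of each group. Pearson correlations of log2(TPM + 0.5) between libraries were 0.990 to 0.991 within ABA, 0.988 to 0.992 within control and 0.959 to 0.967 between the groups. The study describes *sweet1* as a null mutant by its transcript. *SWEET1* itself held 14.4, 12.98, 16.9 and 17.1 TPM in ABA replicates 1 to 4, against 11.1, 12.97, 13.3 and 10.8 TPM in control replicates 1 to 4. Each file gives a gene only 1 value, so these levels cannot place the reads before or after the insertion and are no check of the genotype. The seed labels were checked against seed genes. *ICL*, the isocitrate lyase of the glyoxylate cycle that seedlings use to turn stored oil into sugar, held 15370.3, 14839.7, 13461 and 15046 TPM in the ABA libraries, against 14689, 14064, 13497 and 15401 TPM in the control libraries. The cruciferin *CRA1*, a storage protein, was measured in every library, and *EPR1*, an extensin-like protein of the endosperm, averaged 149.8 ± 8.35 TPM with ABA and 142 ± 16.1 TPM in the control (SD, n = 4 each, as for every mean below). In these bulk libraries a lower share of cells of one type cannot be told apart from less RNA of a gene in each cell.

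A gene was called risen or fallen with ABA when limma gave a Benjamini-Hochberg adjusted p under 0.05 and its fold change was at least 1.22 (0.29 on the log2 scale). All fold changes are ABA minus control on the log2(TPM + 0.5) scale, which understates the change of weakly expressed genes, and the value after ± is the standard error of the fit. The filter on low values, more than 0.5 TPM in 50% or more of the 8 libraries, left 17602 genes, of which 1814 rose (10.3%) and 2307 fell (13.1%), so that 23.4% changed and 13481 did not pass. These shares of all genes tested are the background for the counts in the lists below. The larger changes were rises. At least 2-fold (1 on the log2 scale), 453 genes rose and 331 fell, and at least 4-fold (2 on the log2 scale), 187 rose and 22 fell. At 3 or more on the log2 scale 97 genes rose and 0 fell, and 38 of the rises reached 4. The median change was 0.54 over the risen genes, -0.53 over the fallen genes and 0.00 over all genes tested. All 4 ABA values lay above all 4 control values for 2768 genes (15.7% of those tested) and below them for 3039 genes (17.3%). Of the risen genes 1666 and of the fallen genes 2097 had no overlap between the groups. Genes that rose were lower in the control (median 9.87 TPM) than those that fell (13.6 TPM) or all genes tested (13.6 TPM). Among genes under 1 TPM in the control 14.2% rose and 4.10% fell, and among genes of 100 TPM or more 4.59% rose and 10.2% fell. A gene under 0.5 TPM in every control library passed the filter only through its ABA libraries. The control level is also the baseline of the fold change, so these shares follow in part from the filter and the grouping.

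**Figure D1:**
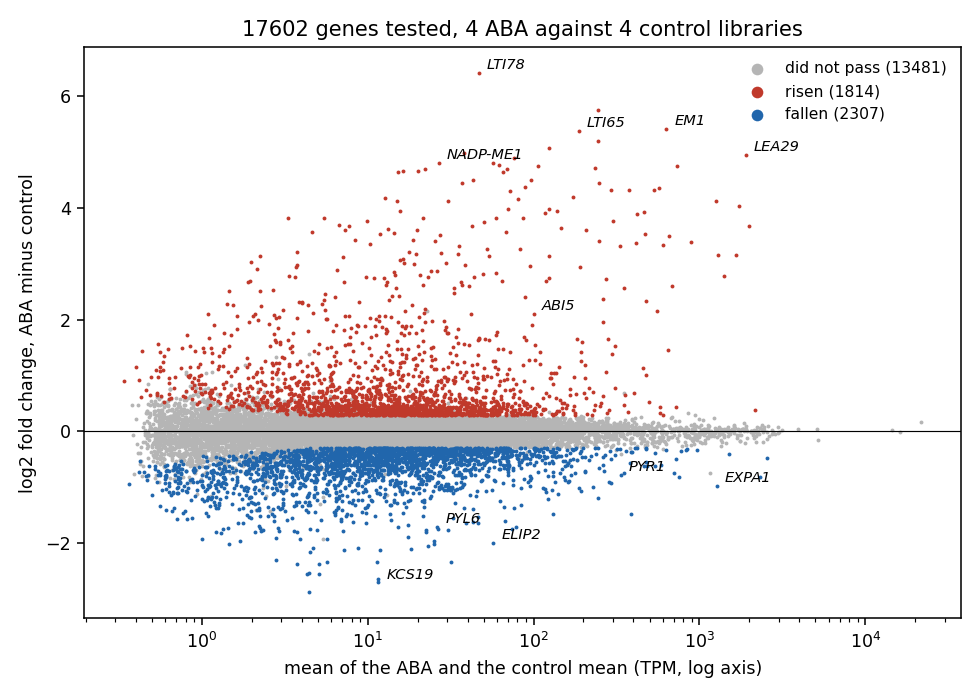
Each point is 1 of the 17602 genes tested, with the mean of the ABA and control means (TPM, log axis) across and the log2 fold change, ABA minus control, upwards. The 1814 risen genes are red, the 2307 fallen genes blue and the rest grey, and the rises reach 6.41 (*LTI78*) while the named falls reach -2.70 (*KCS19*).

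The split between rises and falls depended on how libraries were scaled. When each library was brought to the same sum, which lowered the median change over all genes to -0.05, 1434 genes rose and 2838 fell, so that rises made up 33.6% of the calls in place of 44.0%. No gene was called in opposite directions by both scalings, and 1434 of the risen and 2305 of the fallen genes were called under both.

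ABA replicate 3 is the library that the study set aside in its own table, and each result was also taken without it. Its correlations with the other ABA libraries (0.990 to 0.991) covered the same range as theirs with each other (0.990 to 0.991), and its correlations with the control libraries were 0.961 to 0.966. In a principal component analysis the first component held 67.5% of the variance and parted ABA (33.5 to 35.8) from control (-37.2 to -30.7), with ABA replicate 3 at 33.5. Over 10347 genes with a mean of at least 10 TPM in the ABA libraries, 3 genes of ABA replicate 3 lay more than 1 log2 unit from the mean of the other ABA libraries, against 11, 15 and 11 genes when ABA replicates 1, 2 and 4 were each set against the rest. Of the 4049 genes called without it, 98.0% had the same direction in ABA replicate 3 alone, with a median ratio of its change to that of the other ABA libraries of 0.91. The same shares were 98.5% to 99.2% and the ratios 0.95 to 0.99 when ABA replicates 1, 2 and 4 were treated in this way.

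Without ABA replicate 3, 1767 genes rose and 2282 fell. Of the calls made with all 8 libraries, 1599 rises (88.2%) and 2096 falls (90.9%) were also made with 7, and 0 genes were called in opposite directions. The calls made only with it numbered 215 rises and 211 falls, and those made only without it 168 rises and 186 falls. Across the called genes the fold change moved by 0.03 in the median and by 0.51 at most on the log2 scale. In each of the 5 most abundant genes called with all 8 libraries but not without ABA replicate 3, the fold change crossed the fold threshold. *RACK1B*, which encodes a ribosome-associated scaffold protein, held 431, 432, 423 and 434 TPM in the ABA libraries, against 491, 553, 544 and 519 TPM in the control libraries, and its log2 fold change was -0.29 with and -0.28 without replicate 3. The histone H3.3 gene *HTR8* stood at -0.30 with and -0.27 without it, and the auxin-responsive SAUR-like gene *AT4G34790* at -0.39 and -0.27.

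Of the 10 genes farthest from the other ABA libraries in replicate 3, 5 were plastid-encoded. *RPL36*, a plastid ribosomal protein gene, held 731, 778, 1614 and 730.2 TPM in the ABA libraries, against 881, 1253, 1170 and 859.5 TPM in the control libraries. *NDHH*, a subunit of the plastid NAD(P)H dehydrogenase, held 20.1, 18.4, 38.8 and 21.7 TPM in the ABA libraries, against 28.1, 37.5, 40.9 and 26.6 TPM in the control libraries. Replicate 3 was the highest of the ABA libraries in both genes, and in *RPL36* it also lay above every control. Both genes missed the test with 8 libraries (adjusted p = 0.584 and 0.111) and fell in the fit without replicate 3 (log2 fold changes -0.46 and -0.70). Among the 87 plastid-encoded genes tested, 2 rose and 0 fell with 8 libraries, and 2 rose and 11 fell without ABA replicate 3. Leaving out control replicate 4 gave 9 falls and leaving out control replicate 1 gave 4 rises. The plastid genes took 3.72 ± 0.33% of all TPM with ABA and 4.19 ± 0.50% in the control, a difference that did not exceed the spread between libraries (exact permutation test, two-sided, p = 0.171, where the smallest p this design allows is 0.0286). *ADH1*, the alcohol dehydrogenase of hypoxic tissue, missed the test with 8 libraries (log2 fold change 0.24, adjusted p = 0.0818) and rose without ABA replicate 3 (0.31) and, just past the thresholds, without control replicate 3 (0.29).

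**Figure D2:**
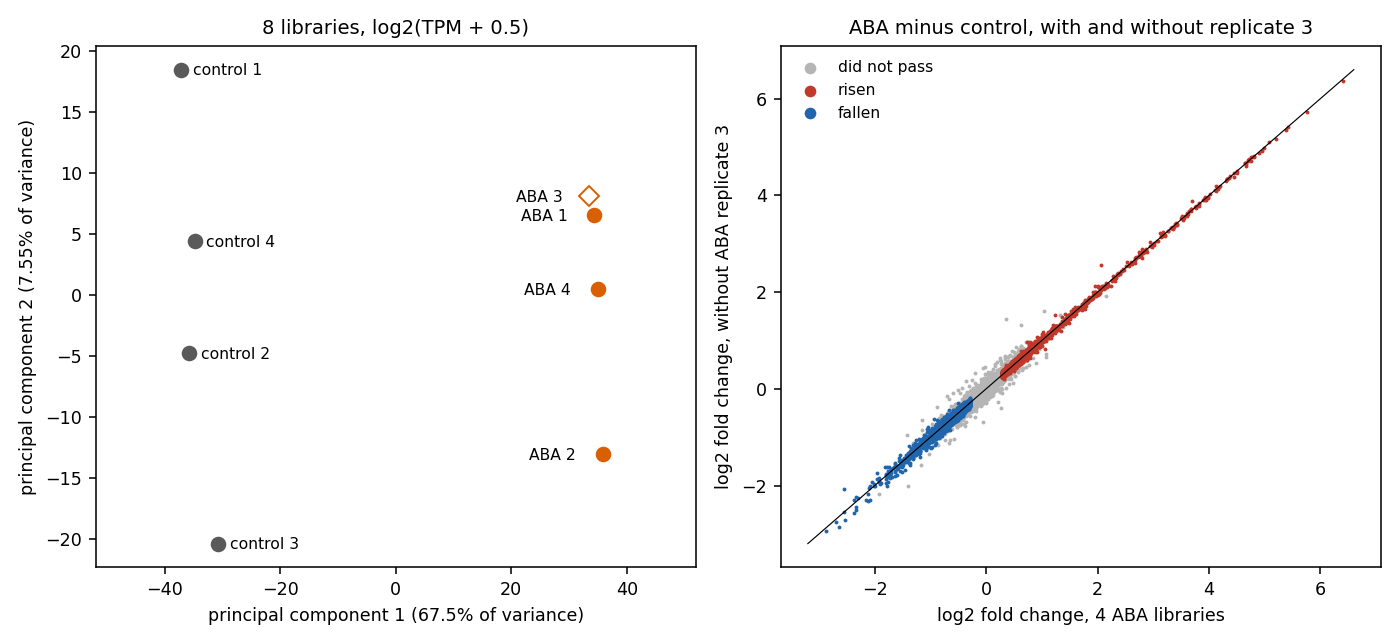
Left, the 8 libraries by their first and second principal components of log2(TPM + 0.5), with 67.5% and 7.55% of the variance, ABA in orange (replicate 3 as an open diamond) and control in grey. Right, the log2 fold change of each gene (ABA minus control) with 4 ABA libraries across and without ABA replicate 3 upwards, coloured by the call with 8 libraries, where the called genes lie along the line of equality.

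The largest rises were in genes of late embryogenesis and cold or drought response. *LTI78*, also known as *RD29A*, encodes a hydrophilic protein induced by cold, drought and ABA and had the largest rise of all genes that averaged 10 TPM or more in either group. It held 103, 82.2, 102 and 85.6 TPM in the ABA libraries, against 0.90, 0.45, 0.79 and 0.35 TPM in the control libraries (log2 fold change 6.41 ± 0.15, adjusted p = 3.21e-11). The groups did not overlap, and every control value was under 1 TPM. Its neighbour on chromosome 5, *LTI65* (*RD29B*), held 398, 342, 381 and 346 TPM in the ABA libraries, against 9.36, 6.26, 10.1 and 8.14 TPM in the control libraries (5.37 ± 0.12, adjusted p = 1.44e-11). *AT2G42560* and *AT3G53040*, 2 late embryogenesis abundant (LEA) domain proteins, had changes of 5.76 ± 0.21 and 5.20 ± 0.17. *EM1*, a group 1 LEA protein of dry seeds, held 1284, 1232, 1213 and 1211 TPM in the ABA libraries, against 31.6, 18.0, 47.1 and 24.5 TPM in the control libraries (5.41 ± 0.21, adjusted p = 1.92e-09). Control replicate 3 was the highest of the control libraries, and no control reached the lowest ABA value.

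The other 7 of the 12 largest rises lay between 4.77 and 5.08. They were the LEA gene *LEA29* (4.95 ± 0.13) and *AT4G25580* (4.80 ± 0.22), a CAP160 protein like *LTI65*, together with the phosphatidylethanolamine-binding protein *AT5G01300* (5.08 ± 0.23) and the cystathionine-beta-synthase domain protein *PV42B* (4.98 ± 0.07). *NADP-ME1*, a cytosolic NADP-malic enzyme, held 54.2, 52.6, 51.8 and 51.6 TPM in the ABA libraries, against 1.35, 0.92, 2.17 and 1.35 TPM in the control libraries (4.80 ± 0.15, adjusted p = 2.95e-10). *AT3G15280* (4.90 ± 0.16) and *AT4G31830* (4.77 ± 0.10) carry no annotated function. These 12 genes were picked only from genes without overlap between the groups, so their lack of overlap is no result. All kept their calls without any 1 library and under both scalings to a common sum.

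The promoters of genes on both sides of the response show what the ABRE count further on rests on. Each sequence is the 250 bases before the annotated gene start in TAIR10.1, from RefSeq, written 5′ to 3′ on the strand of the gene, with every ACGTG or its reverse complement CACGT in capitals. *LTI78* (chr5:21240467-21240716, plus strand) is shown as the largest rise, *LTI65* (chr5:21236771-21237020, plus strand) as its neighbour, *AT3G53040* (chr3:19666498-19666747, minus strand) as the promoter with the most cores among the 12 largest rises, *EM1* (chr3:19214472-19214721, plus strand) and *NADP-ME1* (chr2:8595560-8595809, minus strand) as large rises with 2 and 1 cores, and *ABI5* (chr2:15207637-15207886, minus strand) as the bZIP factor of the pathway. *KCS19* (chr5:1293724-1293973, minus strand) and *ELIP2* (chr4:8417992-8418241, plus strand) are shown from the largest falls.
LTI78: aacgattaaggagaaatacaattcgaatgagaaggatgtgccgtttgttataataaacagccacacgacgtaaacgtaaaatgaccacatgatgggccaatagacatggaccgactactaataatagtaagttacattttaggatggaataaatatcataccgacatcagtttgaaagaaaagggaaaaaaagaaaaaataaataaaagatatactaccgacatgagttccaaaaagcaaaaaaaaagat
LTI65: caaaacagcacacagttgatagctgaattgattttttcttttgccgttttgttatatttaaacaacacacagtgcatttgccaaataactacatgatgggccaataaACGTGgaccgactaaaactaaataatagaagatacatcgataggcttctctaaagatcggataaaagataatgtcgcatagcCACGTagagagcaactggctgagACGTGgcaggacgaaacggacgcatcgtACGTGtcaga
AT3G53040: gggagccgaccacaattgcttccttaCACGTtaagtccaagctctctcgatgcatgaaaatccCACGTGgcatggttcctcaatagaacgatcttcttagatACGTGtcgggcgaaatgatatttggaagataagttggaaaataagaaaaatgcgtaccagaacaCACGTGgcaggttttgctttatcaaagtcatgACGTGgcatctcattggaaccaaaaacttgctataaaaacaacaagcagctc
EM1: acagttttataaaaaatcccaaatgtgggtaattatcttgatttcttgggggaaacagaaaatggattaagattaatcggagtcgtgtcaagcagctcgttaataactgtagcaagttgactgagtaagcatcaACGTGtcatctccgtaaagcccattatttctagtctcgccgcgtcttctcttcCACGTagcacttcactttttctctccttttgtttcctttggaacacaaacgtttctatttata
NADP-ME1: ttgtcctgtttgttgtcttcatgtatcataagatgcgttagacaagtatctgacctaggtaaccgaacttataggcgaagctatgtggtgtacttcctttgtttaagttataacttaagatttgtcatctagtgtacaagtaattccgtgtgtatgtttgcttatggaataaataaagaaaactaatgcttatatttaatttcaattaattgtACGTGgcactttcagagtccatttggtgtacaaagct
ABI5: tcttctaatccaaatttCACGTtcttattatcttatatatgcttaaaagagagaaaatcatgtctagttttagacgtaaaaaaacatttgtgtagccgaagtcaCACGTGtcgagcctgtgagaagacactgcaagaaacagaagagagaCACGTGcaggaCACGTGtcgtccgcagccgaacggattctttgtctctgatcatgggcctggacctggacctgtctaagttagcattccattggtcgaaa
KCS19: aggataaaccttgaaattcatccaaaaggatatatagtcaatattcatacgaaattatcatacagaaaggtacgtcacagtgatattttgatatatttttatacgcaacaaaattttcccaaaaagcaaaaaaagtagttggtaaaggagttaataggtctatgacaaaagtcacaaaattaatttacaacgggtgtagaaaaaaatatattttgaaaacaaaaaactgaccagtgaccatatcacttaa
ELIP2: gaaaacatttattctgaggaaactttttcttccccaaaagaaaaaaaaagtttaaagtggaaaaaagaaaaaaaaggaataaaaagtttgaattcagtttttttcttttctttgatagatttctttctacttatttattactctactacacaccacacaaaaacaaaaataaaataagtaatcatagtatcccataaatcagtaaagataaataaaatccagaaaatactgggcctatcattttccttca
*AT3G53040* had 5 cores, *LTI65* and *ABI5* 4 each, *EM1* 2 and *NADP-ME1* 1. *LTI78*, *KCS19* and *ELIP2* had 0. These counts hold for a window placed by the annotated gene start, and a core outside it would not be counted. *LTI78* held 4 copies of the drought-responsive element in the 300-base window that also covers the first 50 bases of the gene (ACCGAC or GCCGAC on either strand), against 1 each in *LTI65* and *AT3G53040*.

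Over all genes, the share of promoters with the ABRE core followed the size of the rise. The window ran from 250 bases before to 50 bases after the start and was read for 17436 tested genes, and motifs were searched on both strands. ACGTG was present in 88.7% of the 97 promoters of genes that rose by at least 3 (log2), in 68.9% of the 90 that rose by 2 to 3, in 54.0% of the 265 that rose by 1 to 2 and in 39.5% of the 1356 with a smaller rise. It was present in 28.1% of the 2307 fallen genes, in 24.9% of those that did not pass and in 26.7% of all 27438 promoters of that length. The longer ABRE (ACGTGTC or ACGTGGC, which contains the core) was in 71.1% of the promoters of the largest rises, 7.67% of the fallen genes and 7.65% of all promoters. At least 2 cores were found in 60.8% of the promoters of the largest rises and in 5.64% of those of fallen genes.

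The G-box (CACGTG, which also contains the core) was in 59.8% of the promoters of genes that rose by at least 3, in 8.50% of those of fallen genes and in 7.68% of all promoters. The drought-responsive element was in 22.7% of the promoters of the largest rises, 8.11% of the fallen genes and 8.73% of all promoters. The W-box (TTGACC or TTGACT), which WRKY factors bind, was in 22.7% of the largest rises and did not follow their size. The RY repeat (CATGCATG), which B3 factors of seeds bind, was in 6 of the 97 promoters of the largest rises (6.19%), against 0.74% of fallen genes and 0.88% of all promoters. The site II element (TGGGCC or TGGGCT) was in 9.06% of the promoters of genes that fell by at least 1, against 27.6% of all tested genes and 21.7% of all promoters. Its share was also low in genes that rose by 2 to 3 (14.4%) and by 1 to 2 (16.6%), but it was 29.9% in the largest rises. These shares are counts of letters in a window and carry no test.

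**Figure D3:**
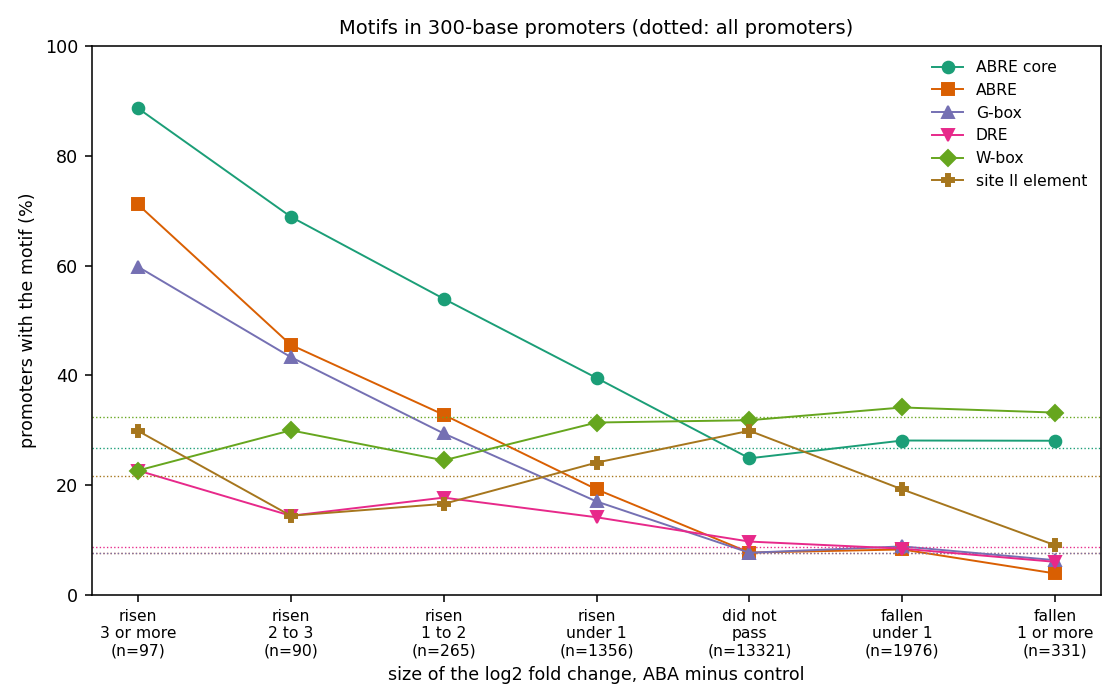
Share of promoters (%, 250 bases before to 50 after the start) that hold each of 6 motifs, by call and size of the log2 fold change, ABA minus control, with the number of promoters under each class and the share over all promoters dotted. The ABRE core goes from 88.7% of the largest rises to 28.1% of the genes that fell by at least 1, and the W-box lies between 22.7% and 34.2% in every class.

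The largest falls were smaller than the largest rises. *KCS19*, a 3-ketoacyl-CoA synthase of very-long-chain fatty acid elongation, held 3.47, 1.82, 3.05 and 2.69 TPM in the ABA libraries, against 25.2, 17.7, 18.7 and 20.2 TPM in the control libraries (log2 fold change -2.70 ± 0.16, adjusted p = 8.68e-08). The ABA values were all under 3.5 TPM and the control values all above 17. *PMEI12*, of the pectin methylesterase inhibitor family, held 2.56, 1.76, 4.44 and 2.75 TPM in the ABA libraries, against 24.8, 16.4, 15.7 and 24.2 TPM in the control libraries (-2.65 ± 0.22, adjusted p = 2.02e-06). *LATE*, a C2H2 zinc finger protein (-2.34 ± 0.14), *ASPGB1*, an asparaginase (-2.12 ± 0.15), and *FLA9*, a fasciclin-like arabinogalactan protein of the cell wall (-2.05 ± 0.12), fell likewise. *ELIP2*, an early light-induced chlorophyll-binding protein, held 21.9, 21.4, 23.3 and 23.3 TPM in the ABA libraries, against 110.2, 85.0, 79.7 and 93.5 TPM in the control libraries (-2.002 ± 0.09, adjusted p = 4.70e-09). Of the rest of the 12 largest falls, *MSRB9* is a methionine sulfoxide reductase (-2.11 ± 0.09), *AT2G32560* an F-box protein (-2.01 ± 0.09) and *AT2G43140* a bHLH factor (-1.95 ± 0.10), and *AT1G07690* (-2.33 ± 0.18) carries no annotated function. *AT4G16230* (-2.08 ± 0.22) and *AT4G16233* (-2.11 ± 0.35) are adjacent GDSL lipase genes on the same strand of chromosome 4, and reads of one may count for the other. These 12 falls too were picked only from genes without overlap between the groups, and all 12 kept their calls without any 1 library.

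**Figure D4:**
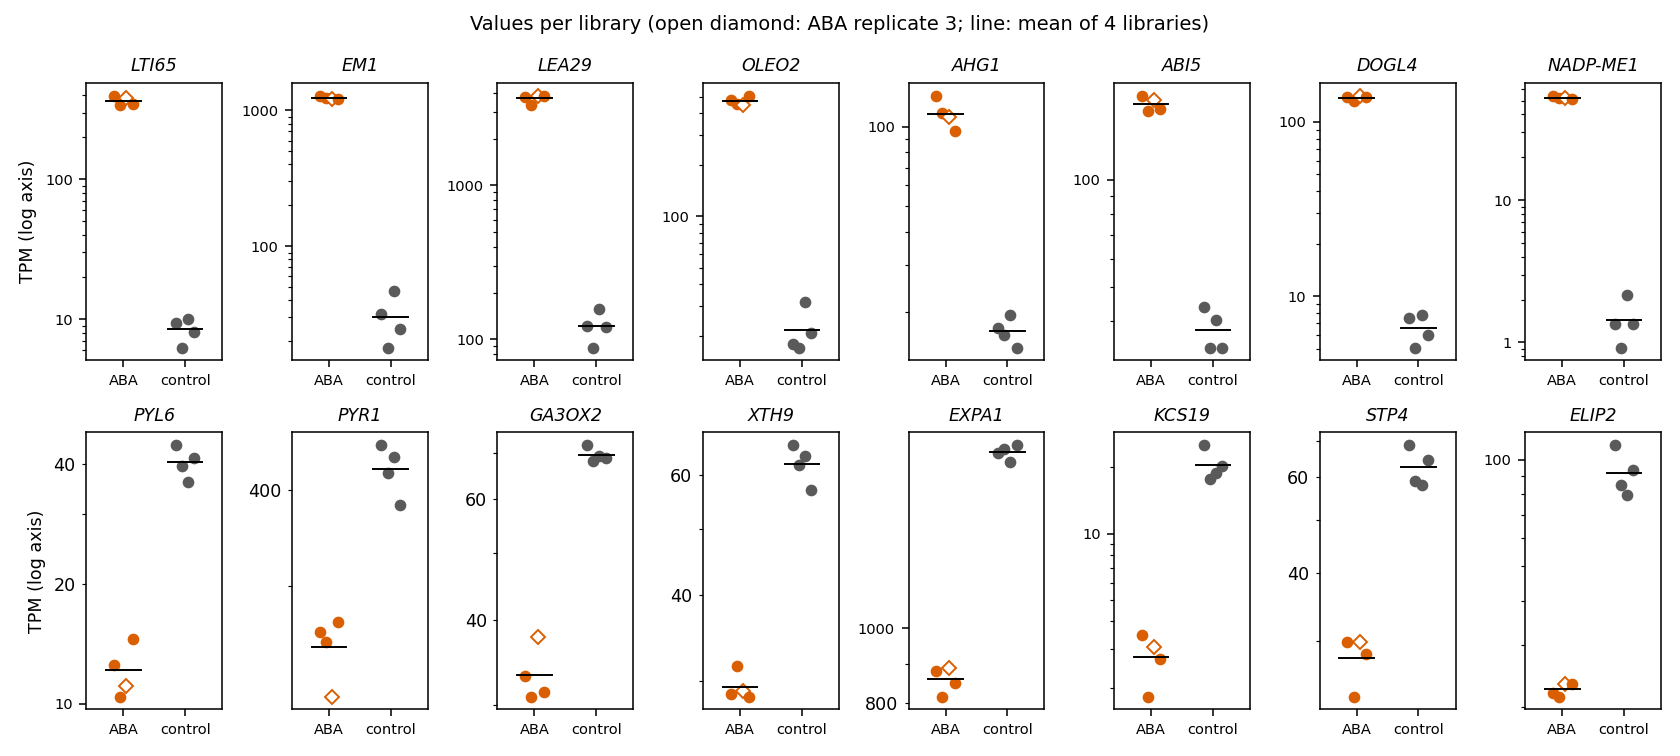
TPM (log axis, with its own range in each panel) in the 4 ABA libraries (orange, left, replicate 3 as an open diamond) and the 4 control libraries (grey, right) for 8 genes that rose and 8 that fell, with lines at the means. The groups of 4 are apart in all 16 panels. That gap is no result, because all the genes shown were called and several were picked for their lack of overlap. In *EM1* the ABA values run from 1211 to 1284 TPM while the control values run from 18.0 to 47.1 TPM.

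Transcripts of the core ABA pathway moved in opposite directions. The receptors fell for the most part, while most of the phosphatases that the receptors inhibit rose. Of the receptor list's 14 members, 12 passed the filter on low values, and of these 3 rose, 7 fell and 2 did not pass the test (median log2 fold change -0.51). *PYR1*, the most abundant receptor gene here, held 261, 254, 215 and 269 TPM in the ABA libraries, against 458, 421, 442 and 382 TPM in the control libraries (log2 fold change -0.77 ± 0.07, adjusted p = 7.52e-06). *PYL4* fell to 73.5 ± 2.31 TPM with ABA, against 170.3 ± 8.60 TPM in the control (-1.21 ± 0.05), and *PYL6* held 12.5, 10.4, 11.1 and 14.6 TPM in the ABA libraries, against 44.8, 39.7, 36.2 and 41.6 TPM in the control libraries (-1.71 ± 0.10, adjusted p = 7.78e-08). *PYL13* went against the list and held 27.9, 25.5, 25.9 and 31.6 TPM in the ABA libraries, against 6.65, 4.74, 5.47 and 6.56 TPM in the control libraries (2.16 ± 0.11, adjusted p = 1.98e-08). The rises of *PYL11* (0.33 ± 0.10) and *PYL12* (0.78 ± 0.27) were less firm. *PYL11* did not pass without control replicate 4 or without ABA replicate 1 or 2, nor at the same sum (0.28), and *PYL12*, under 3 TPM in every library, passed in 2 of the 8 fits that left out 1 library (adjusted p up to 0.1, and 0.0973 without ABA replicate 3). Without control replicate 4 or without ABA replicate 2 only *PYL13* rose among the receptors. Summed over the list, receptor transcripts came to 594 to 690.2 TPM with ABA and 1002 to 1107 TPM in the control.

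Clade A protein phosphatases 2C remove the phosphate that activates SnRK2 kinases. On the list of 9 genes 8 passed the filter on low values, and of these 7 rose, 0 fell and 1 did not pass the test (median log2 fold change 1.11). *AHG1*, which acts in seeds, held 131, 112, 108 and 96.2 TPM in the ABA libraries, against 17, 16.3, 19.5 and 14.6 TPM in the control libraries (log2 fold change 2.69 ± 0.10, adjusted p = 1.06e-09). *HAI3* averaged 64.5 ± 5.35 TPM with ABA and 10.03 ± 1.07 TPM in the control (2.63 ± 0.08), *HAI2* 35.7 ± 3.62 TPM with ABA and 7.78 ± 0.333 TPM in the control (2.12 ± 0.08) and *PP2CA* 93.0 ± 2.86 TPM with ABA and 45.6 ± 2.24 TPM in the control (1.02 ± 0.05). No ABA library lay below a control library in any of these. *HAI1* was under the filter, and *ABI1*, the member that did not pass (both chosen after their values were seen), averaged 40.4 TPM with ABA and 46.0 TPM in the control. All ABA values of *ABI1* lay below all of its control values. In sum the phosphatases reached 376 to 425 TPM with ABA and 151 to 163 TPM in the control.

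SnRK2 kinases pass the ABA signal on by phosphorylation. On a list of 10 genes 8 passed the filter on low values, and of these 1 rose, 1 fell and 6 did not pass the test (median log2 fold change 0.06). The share that passed, 2 of 8, was near the 23.4% of all genes. *SNRK2.2*, which with *SNRK2.3* and *OST1* carries the ABA signal, averaged 109.6 ± 6.84 TPM with ABA and 102 ± 2.303 TPM in the control (0.11 ± 0.05, adjusted p = 0.113). *SNRK2.10*, of a subclass not activated by ABA, rose by 0.41 ± 0.05. *SNRK2.8* fell (-0.35 ± 0.06), but its change was -0.29 without ABA replicate 3, just inside the fold threshold, so that no member fell in that fit. The list total was 394 to 413 TPM with ABA and 388 to 398 TPM in the control.

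Genes of ABA synthesis and of ABA breakdown rose side by side, each in part. Of the synthesis list's 10 members, 9 passed the filter on low values, and of these 4 rose, 0 fell and 5 did not pass the test (median log2 fold change 0.48). *ABA1*, the zeaxanthin epoxidase of the first step, held 35.1, 34.7, 36.1 and 38.0 TPM in the ABA libraries, against 11.8, 12.6, 12.1 and 13.7 TPM in the control libraries (log2 fold change 1.49 ± 0.06, adjusted p = 3.98e-09). *NCED9*, a seed-expressed 9-cis-epoxycarotenoid dioxygenase, averaged 5.47 ± 0.85 TPM with ABA and 1.57 ± 0.261 TPM in the control (1.52 ± 0.14), and the weakly expressed *NCED5* (0.91 ± 0.22) and *AAO3* (0.60 ± 0.13), an abscisic aldehyde oxidase, rose as well. Of the breakdown and conjugation list's 7 members, 4 passed the filter on low values, and of these 2 rose, 0 fell and 2 did not pass the test (median log2 fold change 0.89). Both risen genes encode ABA 8′-hydroxylases. *CYP707A1* held 40.3, 36.1, 35.9 and 35.4 TPM in the ABA libraries, against 15.02, 11.8, 11.2 and 12.4 TPM in the control libraries (1.52 ± 0.09, adjusted p = 5.83e-08), and *CYP707A2*, the member best known from imbibed seeds, averaged 11.9 ± 1.95 TPM with ABA and 3.65 ± 0.347 TPM in the control (1.57 ± 0.12).

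Among the transcription factors of the pathway, *ABI5* had the largest called change. The list held 15 genes, of which 10 passed the filter on low values. Of these 5 rose, 1 fell and 4 did not pass the test (median log2 fold change 0.37). *ABI5*, the bZIP factor that arrests growth after germination, held 172, 156, 167 and 158 TPM in the ABA libraries, against 43.8, 33.8, 40.3 and 33.8 TPM in the control libraries (log2 fold change 2.101 ± 0.08, adjusted p = 1.64e-09). *EEL*, a bZIP factor related to it, averaged 15.7 ± 0.839 TPM with ABA and 6.93 ± 0.949 TPM in the control (1.13 ± 0.10), *ABF4* 14.6 ± 0.526 TPM with ABA and 6.61 ± 0.891 TPM in the control (1.098 ± 0.09) and *ABF3* 8.06 ± 0.905 TPM with ABA and 4.64 ± 0.713 TPM in the control (0.74 ± 0.12). The B3 factor *ABI3*, chosen after its values were seen, averaged 122 TPM with ABA and 86.6 TPM in the control (0.49). *ABI4*, an AP2 factor of ABA and sugar response, went the other way and held 126, 125, 123 and 115 TPM in the ABA libraries, against 189.6, 192, 193 and 177 TPM in the control libraries (-0.62 ± 0.04, adjusted p = 6.20e-07). *LEC1*, *LEC2* and *L1L*, regulators of embryo development that were also chosen after their values were seen, were under 0.15 TPM in both group means. The ABI5-binding proteins, which hold *ABI5* activity down, rose with it, 3 of 4 members passing and the median at 1.54. *AFP1* averaged 25.8 ± 1.76 TPM with ABA and 3.96 ± 0.478 TPM in the control (2.56 ± 0.09) and *AFP2* 59.2 ± 6.20 TPM with ABA and 25.6 ± 0.736 TPM in the control (1.19 ± 0.07).

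HD-ZIP I factors did not share a direction. On the list of 12 genes 6 passed the filter on low values, and of these 1 rose, 3 fell and 2 did not pass the test (median log2 fold change -0.15). *HB7*, an ABA- and drought-induced member, held 10.2, 8.38, 9.65 and 9.85 TPM in the ABA libraries, against 1.41, 1.46, 1.13 and 1.85 TPM in the control libraries (log2 fold change 2.36 ± 0.13, adjusted p = 3.31e-08). *HB5* fell to 135 ± 8.49 TPM with ABA, against 180.5 ± 7.18 TPM in the control (-0.42 ± 0.05), and *HB16* fell as well (-0.40 ± 0.08).

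Most dormancy genes rose. On a list of 8 genes 7 passed the filter on low values, and of these 5 rose, 1 fell and 1 did not pass the test (median log2 fold change 1.38). *DOGL4*, a relative of the dormancy gene *DOG1*, held 139, 131, 141 and 139 TPM in the ABA libraries, against 7.49, 5.07, 7.82 and 5.97 TPM in the control libraries (log2 fold change 4.30 ± 0.11, adjusted p = 5.16e-11), and *DOGL3* averaged 20.6 ± 0.536 TPM with ABA and 5.58 ± 0.582 TPM in the control (1.80 ± 0.08). *SOM*, a CCCH zinc finger protein that represses germination in the dark, held 444, 431, 426 and 422 TPM in the ABA libraries, against 159, 154, 169.8 and 176 TPM in the control libraries (1.38 ± 0.05, adjusted p = 6.54e-10). *MFT*, a phosphatidylethanolamine-binding protein that acts in germination under ABA, averaged 9.54 ± 0.465 TPM with ABA and 1.603 ± 1.195 TPM in the control (2.45 ± 0.33). *SPT*, a bHLH factor of seed dormancy, went the other way and held 40.1, 40.5, 36.3 and 37.8 TPM in the ABA libraries, against 68.4, 67.5, 67.9 and 65.9 TPM in the control libraries (-0.80 ± 0.05, adjusted p = 1.16e-07).

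LEA proteins had the highest median of the lists with 7 or more tested genes, and most dehydrins rose with them. Of the LEA list's 22 members, 20 passed the filter on low values, and of these 18 rose, 1 fell and 1 did not pass the test (median log2 fold change 3.80). Over the list the sum was 24324 to 26336 TPM with ABA and 4342 to 5330 TPM in the control, so that every ABA library held more than every control library. *LEA29* held 3748, 3358, 3825 and 3840 TPM in the ABA libraries, against 122, 88.0, 156 and 121 TPM in the control libraries (log2 fold change 4.95 ± 0.13, adjusted p = 7.86e-11). *LEA7* averaged 3665 ± 145 TPM with ABA and 289 ± 30.2 TPM in the control (3.67 ± 0.07), *LEA4-5* 3244 ± 181 TPM with ABA and 200.3 ± 32.6 TPM in the control (4.03 ± 0.10) and *AT3G17520* 2369 ± 106 TPM with ABA and 138 ± 21.8 TPM in the control (4.12 ± 0.10). *EM6*, like *EM1* a group 1 member, averaged 1407 ± 83.8 TPM with ABA and 54.6 ± 22.1 TPM in the control (4.75 ± 0.20). *SAG21*, a LEA5-type protein of mitochondria that senescence and oxidants induce, went against the list and held 2105, 2153, 2004 and 2294 TPM in the ABA libraries, against 2796, 2932, 3279 and 2818 TPM in the control libraries (-0.47 ± 0.06, adjusted p = 0.000118).

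Dehydrins bind membranes and proteins in drying cells. The list held 10 genes, of which 10 passed the filter on low values. Of these 6 rose, 1 fell and 3 did not pass the test (median log2 fold change 2.04). *RAB18* held 1246, 1259, 1111 and 1208 TPM in the ABA libraries, against 105, 69.7, 180 and 95.9 TPM in the control libraries (log2 fold change 3.50 ± 0.21, adjusted p = 9.38e-08). *LEA*, a dehydrin named for the family, averaged 1083 ± 47.2 TPM with ABA and 54.3 ± 17.59 TPM in the control (4.36 ± 0.17), *XERO1* 605 ± 26.8 TPM with ABA and 60.3 ± 5.39 TPM in the control (3.32 ± 0.06) and *AT4G39130* 39.2 ± 6.95 TPM with ABA and 1.22 ± 0.80 TPM in the control (4.67 ± 0.32). *ERD10*, a dehydrin of early dehydration and cold, averaged 6.73 ± 0.368 TPM with ABA and 10.1 ± 1.90 TPM in the control (-0.54 ± 0.11, adjusted p = 0.0034) and fell. In the list of RD, KIN and COR413 genes 7 of 11 tested members rose and 0 fell (median 1.06). *COR413-PM1*, a cold-regulated membrane protein, averaged 111 ± 5.02 TPM with ABA and 7.51 ± 1.74 TPM in the control (3.82 ± 0.13), and *KIN1* 29.6 ± 3.02 TPM with ABA and 0.708 ± 0.144 TPM in the control (4.64 ± 0.11), whose near-identical neighbour *KIN2* can share reads with it.

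Among storage protein genes 3 of 9 rose, and among oil body genes 10 of 11 did. Of the storage list's 9 members, 9 passed the filter on low values, and of these 3 rose, 0 fell and 6 did not pass the test (median log2 fold change 0.27). *CRA1*, a 12S cruciferin, held 1521, 1819, 1609 and 1553 TPM in the ABA libraries, against 133, 141, 212 and 139.5 TPM in the control libraries (log2 fold change 3.40 ± 0.12, adjusted p = 1.11e-09). *CRC*, a cruciferin, held 192, 205, 169 and 159.7 TPM in the ABA libraries, against 75.1, 81.6, 135 and 68.5 TPM in the control libraries (1.052 ± 0.17, adjusted p = 0.000524), and the 2S albumin *SESA1* averaged 24.9 ± 8.20 TPM with ABA and 15.8 ± 2.74 TPM in the control (0.60 ± 0.18, adjusted p = 0.0259), a call that was lost without control replicate 1 or 4 or without ABA replicate 2 (adjusted p up to 0.0726). The other 2S albumins did not pass. *SESA3*, named after its values were seen, averaged 156 TPM with ABA and 134 TPM in the control. Control replicate 3 was the highest control in both *CRA1* and *CRC*.

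Oleosins and related proteins coat the oil droplets of seeds. Of the oil body list's 11 members, 11 passed the filter on low values, and of these 10 rose, 0 fell and 1 did not pass the test (median log2 fold change 2.48). *OLEO2* held 479.5, 455, 448 and 506 TPM in the ABA libraries, against 17.9, 17.1, 31.4 and 20.8 TPM in the control libraries (log2 fold change 4.45 ± 0.15, adjusted p = 5.04e-10). *OLEO1* averaged 558 ± 26.3 TPM with ABA and 41.5 ± 10.2 TPM in the control (3.77 ± 0.13), *AT3G01570* 451 ± 15.4 TPM with ABA and 42.8 ± 11.7 TPM in the control (3.42 ± 0.13) and *AT3G18570* 15.7 ± 1.41 TPM with ABA and 1.03 ± 0.341 TPM in the control (3.42 ± 0.15). The most abundant member, the rubber elongation factor-like protein *AT2G47780*, averaged 632 ± 27.8 TPM with ABA and 286 ± 13.3 TPM in the control (1.14 ± 0.05). Control replicate 3 was again the highest control in *OLEO1*, *OLEO2* and *AT3G01570*.

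Vacuolar aquaporins of seeds rose while several other aquaporins fell. Of the aquaporin list's 21 members, 15 passed the filter on low values, and of these 3 rose, 5 fell and 7 did not pass the test (median log2 fold change -0.11). *ALPHA-TIP*, a tonoplast aquaporin of protein storage vacuoles, held 68.4, 66.4, 61.8 and 62.0 TPM in the ABA libraries, against 6.14, 3.29, 13.02 and 4.91 TPM in the control libraries (log2 fold change 3.31 ± 0.28, adjusted p = 2.71e-06). *BETA-TIP* averaged 40.5 ± 4.53 TPM with ABA and 6.03 ± 3.25 TPM in the control (2.76 ± 0.24). *PIP3*, a plasma membrane aquaporin, held 322, 325, 307 and 308 TPM in the ABA libraries, against 402, 412, 409 and 393 TPM in the control libraries (-0.36 ± 0.04, adjusted p = 2.15e-05) and *PIP2A* averaged 17.7 ± 1.27 TPM with ABA and 29.0 ± 0.616 TPM in the control (-0.70 ± 0.06), both lower with ABA.

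Other protective genes gave smaller and mixed changes. *PER1*, the 1-cysteine peroxiredoxin of dry seeds, held 317, 314, 329.8 and 343 TPM in the ABA libraries, against 14.4, 12.3, 27.0 and 18.4 TPM in the control libraries (log2 fold change 4.20 ± 0.18, adjusted p = 4.18e-09), and the glutathione peroxidase *GPX6* averaged 369.9 ± 11.2 TPM with ABA and 176 ± 6.22 TPM in the control (1.07 ± 0.04). Over the antioxidant list 4 of 12 tested members rose and 1 fell, the cytosolic ascorbate peroxidase *APX1* (-0.45 ± 0.05). Of the raffinose and inositol list's 9 members, 7 passed the filter on low values, and of these 5 rose, 2 fell and 0 did not pass the test (median log2 fold change 1.003). *GOLS2*, a galactinol synthase, averaged 7.03 ± 1.33 TPM with ABA and 0.465 ± 0.216 TPM in the control (2.98 ± 0.19), and *MIPS2*, an inositol phosphate synthase, 7.07 ± 1.62 TPM with ABA and 1.03 ± 0.277 TPM in the control (2.304 ± 0.17). *STS* and *MIPS3* passed the filter only through the group in which they were higher. The raffinose synthase *RS5* (-0.67 ± 0.18) and *MIPS3* (-0.78 ± 0.19) fell, and leaving out any 1 control library kept *MIPS3* from being tested and brought the falls to 1. *P5CS1*, the stress-induced enzyme of proline synthesis, averaged 3.48 ± 0.489 TPM with ABA and 5.13 ± 0.394 TPM in the control (-0.50 ± 0.11, adjusted p = 0.00447) and fell, while *P5CDH* of proline breakdown rose (0.41 ± 0.07).

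Heat shock genes were uneven between libraries. On the list of 16 genes 14 passed the filter on low values, and of these 5 rose, 1 fell and 8 did not pass the test (median log2 fold change 0.39). *HSP101*, a disaggregating chaperone, held 9.29, 6.68, 5.45 and 5.24 TPM in the ABA libraries, against 3.0, 2.63, 2.84 and 1.71 TPM in the control libraries (log2 fold change 1.22 ± 0.19, adjusted p = 0.000351). ABA replicate 1 was the highest there and in *HSP17.6A*, which held 51.0, 36.2, 25.4 and 22.3 TPM in the ABA libraries, against 17.1, 18.1, 26.9 and 11.8 TPM in the control libraries (0.83 ± 0.26, adjusted p = 0.0273). *HSP17.6A* lost its call in 4 of the 8 fits that left out 1 library (lowest change 0.61, adjusted p up to 0.0756), and the rises on the list dropped to 2 without ABA replicate 1 or 2. *HSP22.0* (1.21 ± 0.19) is counted among the rises but passed the filter only through the ABA libraries. *HSFA3*, a heat stress transcription factor, averaged 1.11 ± 0.11 TPM with ABA and 2.097 ± 0.22 TPM in the control and fell (-0.69 ± 0.14).

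Few of the enzymes that turn stored oil into sugar passed the test. Of the lipolysis and beta-oxidation list's 13 members, 13 passed the filter on low values, and of these 1 rose, 0 fell and 12 did not pass the test (median log2 fold change 0.02), and of the glyoxylate cycle and gluconeogenesis list's 10 members, 10 passed the filter on low values, and of these 0 rose, 1 fell and 9 did not pass the test (median log2 fold change 0.05). Both shares lay under the background of 23.4% of genes changed. *ICL* stood at 0.03 ± 0.07, adjusted p = 0.81, and *PKT3*, the main peroxisomal thiolase, averaged 795 ± 36.9 TPM with ABA and 772 ± 29.98 TPM in the control (0.04 ± 0.05, adjusted p = 0.538). *PPDK*, pyruvate orthophosphate dikinase, fell to 92.8 ± 7.53 TPM with ABA, against 126 ± 10.8 TPM in the control (-0.44 ± 0.07, adjusted p = 0.000488). The weakly expressed thiolase *PKT1* rose (0.86 ± 0.18).

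Among malic enzymes 1 of 5 tested members rose, the *NADP-ME1* described above, while *NADP-ME4* of the plastid averaged 92.2 ± 1.56 TPM with ABA and 88.3 ± 4.37 TPM in the control (0.06 ± 0.04, adjusted p = 0.317). Alternative respiration, which bypasses the ATP-coupled steps of mitochondria, showed 5 rises, 1 fall and 1 member that did not pass. *AOX2*, the seed-type alternative oxidase, held 20.5, 18.1, 19.7 and 19.2 TPM in the ABA libraries, against 2.35, 2.21, 2.38 and 2.86 TPM in the control libraries (log2 fold change 2.75 ± 0.09, adjusted p = 4.33e-10). *AOX1A*, the isoform that stress induces in leaves, held 9.47, 10.6, 8.67 and 9.40 TPM in the ABA libraries, against 13.2, 15.3, 14.6 and 13.8 TPM in the control libraries (-0.55 ± 0.08, adjusted p = 0.000201) and fell. The external and internal dehydrogenases *NDB2* (0.55 ± 0.12) and *NDA1* (1.23 ± 0.14) rose with *AOX2*. The other 2 rises, *NDA2* and *NDB1*, chosen after their values were seen, were lost at the same sum and without any of control replicates 2 and 4 or ABA replicates 1, 2 and 4.

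Genes of low energy status moved unevenly. SnRK1 is the kinase that plants activate when sugar is short, with *KIN10* as a catalytic subunit and *KING1* and *KING2* named as regulatory ones. Of the complex list's 8 members, 8 passed the filter on low values, and of these 2 rose, 0 fell and 6 did not pass the test (median log2 fold change 0.14). Counted in either direction, 2 of 8 was near the 23.4% of all genes, and the rises alone made up 25%, against 10.3% of all genes. *KIN10* averaged 38.9 ± 2.25 TPM with ABA and 37.9 ± 0.796 TPM in the control (log2 fold change 0.04 ± 0.05, adjusted p = 0.652). *KING2* held 49.6, 49.1, 49.6 and 46.5 TPM in the ABA libraries, against 19.6, 20.3, 22.3 and 20.6 TPM in the control libraries (1.22 ± 0.05, adjusted p = 6.15e-09), and *KING1* averaged 125 ± 10.5 TPM with ABA and 90.6 ± 5.83 TPM in the control (0.46 ± 0.07, adjusted p = 0.000184). *TOR*, the kinase of the opposing pathway, averaged 10.4 ± 0.715 TPM with ABA and 9.20 ± 0.871 TPM in the control (0.17 ± 0.09, adjusted p = 0.153).

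Of the starvation marker list's 14 members, 14 passed the filter on low values, and of these 8 rose, 3 fell and 3 did not pass the test (median log2 fold change 0.30). *DIN6*, a dark-induced asparagine synthase, held 3.67, 3.65, 3.94 and 3.92 TPM in the ABA libraries, against 0.62, 0.64, 0.78 and 0.32 TPM in the control libraries (log2 fold change 1.996 ± 0.16, adjusted p = 1.26e-06), and the dormancy-associated *DRM1* held 279.6, 295, 265 and 292 TPM in the ABA libraries, against 109, 113, 109.8 and 91.3 TPM in the control libraries (1.42 ± 0.07, adjusted p = 9.31e-09). *DRM2* averaged 10.9 ± 1.59 TPM with ABA and 3.60 ± 1.56 TPM in the control (1.54 ± 0.22). *DIN10*, a raffinose synthase family gene induced in the dark, held 206, 207, 201 and 199 TPM in the ABA libraries, against 577, 564, 512 and 611 TPM in the control libraries (-1.47 ± 0.05, adjusted p = 7.83e-10), and the galactosidase *BGAL4* fell (-1.72 ± 0.20) but passed the filter mainly through the control libraries. In total the markers held 724 to 779 TPM with ABA and 818 to 902 TPM in the control, so each ABA library held less than each control. *DIN10* was the most abundant member. With libraries scaled to the same sum 6 members rose, and at the same sum over nuclear genes 5.

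On the list of C, S1 and G-box bZIP factors, *GBF1*, *GBF2* and *GBF3* rose, while 4 members fell, *GBF6* among them (log2 fold change -0.59 ± 0.11, adjusted p = 0.00126). Of that list's 12 members, 12 passed the filter on low values, and of these 4 rose, 4 fell and 4 did not pass the test (median log2 fold change -0.07). *GBF3* held 42.7, 37.9, 39.9 and 36.1 TPM in the ABA libraries, against 10.6, 10.2, 8.87 and 8.88 TPM in the control libraries (log2 fold change 1.97 ± 0.08, adjusted p = 2.00e-09), *GBF2* averaged 53.4 ± 3.66 TPM with ABA and 25.3 ± 1.298 TPM in the control (1.06 ± 0.06) and *GBF1* 104 ± 4.12 TPM with ABA and 62.2 ± 2.57 TPM in the control (0.73 ± 0.05). *BZO2H3*, which encodes bZIP63, a SnRK1 target, averaged 11.02 ± 0.564 TPM with ABA and 19.3 ± 1.08 TPM in the control (-0.78 ± 0.07, adjusted p = 2.74e-06), and *BZIP2* 74.1 ± 4.59 TPM with ABA and 103 ± 2.62 TPM in the control (-0.48 ± 0.05), both lower with ABA. Among *ATG8* genes, whose products build autophagosomes, 3 of 9 rose, and *ATG8H* (0.55 ± 0.11, adjusted p = 0.00288) was the 1 that also rose at the same sum, without control replicate 4 and without ABA replicate 4.

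More sugar transporter genes fell than rose, and no test compared the counts. On a list of 30 genes 20 passed the filter on low values, and of these 4 rose, 9 fell and 7 did not pass the test (median log2 fold change -0.16). *STP4*, a hexose symporter of sink tissues, held 29.8, 23.63, 29.8 and 28.4 TPM in the ABA libraries, against 68.8, 58.9, 58.1 and 64.6 TPM in the control libraries (log2 fold change -1.15 ± 0.08, adjusted p = 4.27e-07). *STP1*, the main hexose symporter of seedlings, held 13.2, 10.4, 13.1 and 12.04 TPM in the ABA libraries, against 22.6, 24.4, 24.5 and 26.6 TPM in the control libraries (-0.99 ± 0.08, adjusted p = 2.45e-06). *SUC1*, a sucrose symporter, averaged 109 ± 2.66 TPM with ABA and 200.3 ± 8.10 TPM in the control (-0.87 ± 0.04), and *SWEET15* 17.2 ± 2.05 TPM with ABA and 30.5 ± 4.20 TPM in the control (-0.80 ± 0.11). The falls of these 4 genes were free of overlap between the groups.

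On the side of the rises, *TMT2*, a monosaccharide carrier of the vacuole, averaged 101 ± 4.22 TPM with ABA and 56.1 ± 1.49 TPM in the control (log2 fold change 0.84 ± 0.04, adjusted p = 3.48e-08), and the phloem sucrose symporter *SUC2* 51.4 ± 6.97 TPM with ABA and 34.6 ± 1.54 TPM in the control (0.56 ± 0.08). *SWEET1*, for which the line is named, had an increase of 0.33 ± 0.10, adjusted p = 0.0256. This call was at the edge of the test, because it was lost without control replicate 1 or 4, without ABA replicate 3 (0.28) or 4 and at the same sum (0.28). *STP13*, a hexose symporter induced by stress (0.33 ± 0.09, adjusted p = 0.0198), likewise lost its call without ABA replicate 3 (0.27) or control replicate 2 and at the same sum. The list had 2 rises in place of 4 without ABA replicate 3.

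Gibberellin (GA) opposes ABA in germination. Of the GA synthesis and deactivation list's 17 members, 10 passed the filter on low values, and of these 2 rose, 2 fell and 6 did not pass the test (median log2 fold change 0.13). The falls were in the last step of synthesis. *GA3OX2* held 33.1, 30.9, 37.7 and 31.3 TPM in the ABA libraries, against 72.0, 68.1, 69.3 and 68.9 TPM in the control libraries (log2 fold change -1.06 ± 0.06, adjusted p = 8.99e-08), and *GA3OX1* averaged 6.13 ± 0.567 TPM with ABA and 15.3 ± 1.197 TPM in the control (-1.25 ± 0.09). *GA20OX3*, of the step before, averaged 44.9 ± 3.27 TPM with ABA and 30.9 ± 2.48 TPM in the control and rose (0.53 ± 0.07). The rise of *GA2OX2*, of GA breakdown, was called in 1 of the 8 fits without 1 library (adjusted p = 0.0482 with all and up to 0.128 without 1).

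GA receptors and DELLA repressors each moved in both directions. The list held 9 genes, of which 9 passed the filter on low values. Of these 3 rose, 3 fell and 3 did not pass the test (median log2 fold change 0.15). *RGL2*, the DELLA protein that holds back germination, held 183, 178, 186 and 174 TPM in the ABA libraries, against 123, 125, 128 and 129 TPM in the control libraries (log2 fold change 0.51 ± 0.04, adjusted p = 9.64e-07). *RGL1* averaged 2.6 ± 0.11 TPM with ABA and 4.35 ± 0.404 TPM in the control (-0.64 ± 0.10) and *GID1A*, a receptor, 45.7 ± 0.796 TPM with ABA and 32.8 ± 1.101 TPM in the control (0.47 ± 0.05). The GA-regulated peptide gene *GASA3* of dry seeds rose (3.07 ± 0.28), and *GASA6*, a promoter of germination, held 403, 386, 348 and 424 TPM in the ABA libraries, against 608, 539, 532 and 592 TPM in the control libraries (-0.54 ± 0.06, adjusted p = 4.95e-05).

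Most expansin and XTH genes that passed the filter fell. Expansins loosen the bonds between wall polymers, and xyloglucan endotransglucosylases (XTH) cut and rejoin xyloglucan. Of the expansin list's 16 members, 13 passed the filter on low values, and of these 1 rose, 8 fell and 4 did not pass the test (median log2 fold change -0.55), and of the XTH list's 21 members, 17 passed the filter on low values, and of these 2 rose, 15 fell and 0 did not pass the test (median log2 fold change -0.64). *EXPA1* held 881, 815, 888 and 850.1 TPM in the ABA libraries, against 1684, 1700, 1636 and 1723 TPM in the control libraries (log2 fold change -0.97 ± 0.04, adjusted p = 6.07e-09), and *EXPA8* averaged 152 ± 5.26 TPM with ABA and 304 ± 20.1 TPM in the control (-0.99 ± 0.05). *EXPA2*, which GA induces in the endosperm, averaged 1332 ± 119.8 TPM with ABA and 1283 ± 116 TPM in the control and did not pass (0.05 ± 0.08, adjusted p = 0.636). *EXPA4* rose (0.54 ± 0.12). The weakly expressed *EXPA6* (-0.63 ± 0.16) is counted among the falls but passed the filter only through the control libraries.

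*XTH9* held 28.7, 31.6, 28.9 and 28.4 TPM in the ABA libraries, against 66.4, 62.0, 64.0 and 57.1 TPM in the control libraries (log2 fold change -1.07 ± 0.06, adjusted p = 4.06e-08). *XTH4* averaged 12.7 ± 0.28 TPM with ABA and 31.2 ± 1.73 TPM in the control (-1.26 ± 0.06) and *XTH33* 1.95 ± 0.193 TPM with ABA and 7.92 ± 1.46 TPM in the control (-1.77 ± 0.13). Against the list, *XTH15* averaged 94.3 ± 6.19 TPM with ABA and 68.1 ± 9.96 TPM in the control (0.48 ± 0.09) and *XTH25* 5.95 ± 0.876 TPM with ABA and 3.74 ± 0.943 TPM in the control (0.62 ± 0.16). Summed over the list, XTH transcripts came to 718 to 764 TPM with ABA and 1042 to 1164 TPM in the control. *MAN7*, an endo-mannanase of the endosperm, rose to 48.7 ± 3.18 TPM with ABA, against 16.9 ± 1.67 TPM in the control (1.503 ± 0.07, adjusted p = 1.71e-08), and *ADPG2*, a polygalacturonase, fell (-0.48 ± 0.10). *CP1*, a cysteine proteinase, lost most TPM of all genes and held 1737, 1582, 1611 and 1751 TPM in the ABA libraries, against 3178, 2837, 2526 and 3273 TPM in the control libraries (-0.82 ± 0.08, adjusted p = 6.77e-06).

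Surface lipid synthesis had the lowest median of the lists with 7 or more tested genes. Its genes make the very-long-chain fatty acids, wax and cutin of the cuticle. On the list of 27 genes 19 passed the filter on low values, and of these 0 rose, 17 fell and 2 did not pass the test (median log2 fold change -0.91). The sum over the list was 228 to 249.7 TPM with ABA and 443 to 518 TPM in the control, so each ABA library held less than each control. *CER1*, of alkane formation, held 1.16, 0.91, 1.93 and 1.25 TPM in the ABA libraries, against 11.4, 5.81, 5.97 and 7.58 TPM in the control libraries (log2 fold change -2.16 ± 0.22, adjusted p = 1.08e-05). *KCS20* averaged 7.20 ± 0.907 TPM with ABA and 27.9 ± 3.004 TPM in the control (-1.89 ± 0.10), *KCS5* 3.19 ± 0.545 TPM with ABA and 9.54 ± 0.804 TPM in the control (-1.46 ± 0.12) and *KCS10*, the most abundant member, 112 ± 3.04 TPM with ABA and 210.4 ± 9.60 TPM in the control (-0.91 ± 0.04).

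Chlorophyll synthesis genes and early light-induced proteins fell in part. On a list of 17 genes 16 passed the filter on low values, and of these 1 rose, 8 fell and 7 did not pass the test (median log2 fold change -0.28). *PORB*, a light-dependent protochlorophyllide oxidoreductase, held 23.4, 19.5, 20.3 and 19.98 TPM in the ABA libraries, against 73.1, 60.8, 54.6 and 73.8 TPM in the control libraries (log2 fold change -1.62 ± 0.10, adjusted p = 8.85e-08), and *ELIP1* averaged 88.0 ± 7.61 TPM with ABA and 192 ± 15.1 TPM in the control (-1.12 ± 0.07). *CH1*, chlorophyllide a oxygenase, rose (0.98 ± 0.08, adjusted p = 2.25e-06). *CHLI1* did not reach the fold threshold (-0.26) but fell at the same sum (-0.31).

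In light signalling and the clock the counts lay near the background or rested on single libraries. *HFR1*, a bHLH factor of shade and far-red response, averaged 1.005 ± 0.177 TPM with ABA and 3.42 ± 0.81 TPM in the control (log2 fold change -1.37 ± 0.17, adjusted p = 5.85e-05), and *PIL2*, a PIF-like factor, 4.78 ± 0.89 TPM with ABA and 0.965 ± 0.265 TPM in the control (1.85 ± 0.17, adjusted p = 4.76e-06). The phytochrome and PIF list had 4 rises and 2 falls among 13 tested members, but 1 rise without ABA replicate 3 or control replicate 3, 2 without ABA replicate 1 or control replicate 1 and 1 at the same sum. Of 17 clock genes 2 rose, *RVE8* (0.73 ± 0.15) and *PRR3* (0.62 ± 0.07), and 2 fell. *CCA1*, a morning factor of the clock, averaged 3.64 ± 0.203 TPM with ABA and 6.24 ± 0.712 TPM in the control (-0.70 ± 0.10, adjusted p = 0.000244). The fall of *LHY* (-0.39 ± 0.11) was lost without control replicate 1 or 4. *PHYA* averaged 149 ± 6.39 TPM with ABA and 145 ± 11.4 TPM in the control and did not pass (0.05 ± 0.06, adjusted p = 0.584).

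Flavonoid synthesis genes moved in both directions. Of the flavonoid list's 17 members, 9 passed the filter on low values, and of these 6 rose, 2 fell and 1 did not pass the test (median log2 fold change 0.65). *TT7*, flavonoid 3′-hydroxylase, held 79.3, 83.5, 82.8 and 81.7 TPM in the ABA libraries, against 28.2, 23.4, 24.5 and 27.8 TPM in the control libraries (log2 fold change 1.64 ± 0.06, adjusted p = 1.70e-09). *TT5*, chalcone isomerase, averaged 20.8 ± 1.13 TPM with ABA and 4.63 ± 0.97 TPM in the control (2.07 ± 0.12), *TT4*, chalcone synthase, 86.8 ± 3.70 TPM with ABA and 46.0 ± 5.61 TPM in the control (0.92 ± 0.08) and *FLS1*, flavonol synthase, 22.02 ± 0.794 TPM with ABA and 9.19 ± 0.799 TPM in the control (1.22 ± 0.07). The glycosyltransferase *UGT78D1* averaged 10.96 ± 0.892 TPM with ABA and 21.0 ± 1.32 TPM in the control and fell (-0.91 ± 0.07). *MYB111*, a regulator of flavonol synthesis, fell too and averaged 1.06 ± 0.286 TPM with ABA and 2.23 ± 0.308 TPM in the control (-0.82 ± 0.17, adjusted p = 0.00268). The proanthocyanidin genes *DFR*, *BAN*, *TT2* and *TT12*, which act in the developing seed coat and were chosen after their values were seen, were listed at 0 in every ABA library and at 0.10 TPM or under in every control library.

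Most of the tested defence and early-response factors fell. Of the defence and early-response list's 15 members, 13 passed the filter on low values, and of these 1 rose, 7 fell and 5 did not pass the test (median log2 fold change -0.45). *WRKY18* held 25.4, 26.7, 26.1 and 23.8 TPM in the ABA libraries, against 63.3, 55.2, 54.9 and 54.3 TPM in the control libraries (log2 fold change -1.14 ± 0.06, adjusted p = 3.89e-08), and *ERF5* averaged 3.995 ± 0.973 TPM with ABA and 7.06 ± 0.621 TPM in the control (-0.77 ± 0.14). The 1 rise, *WRKY22* (0.33 ± 0.11), was called in 3 of the 8 fits without 1 library and not at the same sum (0.27). *JAZ9*, a jasmonate repressor, averaged 3.36 ± 0.736 TPM with ABA and 7.79 ± 1.77 TPM in the control (-1.10 ± 0.17) and *JAZ1* fell too (-0.68 ± 0.09), while *JAZ3* rose (0.47 ± 0.06). Over 10 tested jasmonate genes 2 rose and 2 fell (20% each), against 10.3% and 13.1% of all genes tested.

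Of the ethylene list's 15 members, 14 passed the filter on low values, and of these 2 rose, 5 fell and 7 did not pass the test (median log2 fold change -0.23). *ACO1*, an ACC oxidase of ethylene synthesis, held 85.8, 94.4, 70.8 and 86.1 TPM in the ABA libraries, against 175, 176, 172 and 172 TPM in the control libraries (log2 fold change -1.05 ± 0.07, adjusted p = 3.61e-07). The receptor *ETR2* averaged 14.1 ± 0.849 TPM with ABA and 23.1 ± 1.52 TPM in the control and fell (-0.69 ± 0.07), while the receptor *ERS2* rose (0.73 ± 0.10). *ACS2* rose (1.43 ± 0.19) but passed the filter only through the ABA libraries, and without any 1 of these it was not tested, which left 1 rise. Of 10 tested Aux/IAA auxin repressors 3 fell (30%, against 13.1% of all genes tested), with *IAA16* at 16.9 ± 1.65 TPM with ABA and 33.8 ± 2.27 TPM in the control (-0.98 ± 0.08, adjusted p = 1.30e-06). *IAA14*, 1 of the 3, passed the filter mainly through the control libraries.

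Of the ribosomal list's 19 members, 19 passed the filter on low values, and of these 0 rose, 0 fell and 19 did not pass the test (median log2 fold change -0.03), with 1 fall without ABA replicate 3. Its most abundant member *SAC52* averaged 2373 ± 96.5 TPM with ABA and 2273 ± 130.5 TPM in the control (0.06 ± 0.05, adjusted p = 0.408). Among 16 tested D cyclins and CDK inhibitors 0 rose and 2 fell (12.5%), a share of falls near the 13.1% of all genes tested. *KRP5*, a CDK inhibitor, averaged 8.73 ± 0.952 TPM with ABA and 13.4 ± 0.564 TPM in the control (-0.59 ± 0.09, adjusted p = 0.000208). The fall of *KRP7* (-0.37 ± 0.13) was kept in 2 of the 8 fits without 1 library. *CYCD3;2* stood at 106 ± 6.22 TPM with ABA and 105 ± 3.89 TPM in the control (0.01 ± 0.05, adjusted p = 0.87), and the mitotic *CYCB1;1* averaged 3.45 ± 0.578 TPM with ABA and 2.94 ± 0.402 TPM in the control (0.19 ± 0.14, adjusted p = 0.325). Of 15 tested DNA replication genes 4 fell, and 7 fell without ABA replicate 3. *PCNA1*, the sliding clamp, averaged 22.2 ± 2.08 TPM with ABA and 31.2 ± 3.61 TPM in the control (-0.48 ± 0.09, adjusted p = 0.00125).

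Markers of the tissues that make up the seed were set beside these results. Of 9 tested seed coat genes 0 rose and 3 fell, *MUM2* (-0.62 ± 0.12), *CESA5* (-0.32 ± 0.09) and *CSLA2* (-0.30 ± 0.06). *CESA5* lost its call without control replicate 2 or ABA replicate 1, and *CSLA2* without control replicate 4 or ABA replicate 3 (-0.27). The summed level of the list was 545 to 624 TPM with ABA and 517 to 572 TPM in the control. For the 4 endosperm genes listed, of which 3 were tested, it was 252 to 271 TPM with ABA and 206 to 235 TPM in the control, with no overlap between the groups. Of the 3 tested genes 1 rose and 2 did not pass (median log2 fold change 0.09). All ABA values lay above all control values in 1 of the 3, against 15.7% of all genes tested. *ICE1*, a bHLH factor of endosperm breakdown, rose (0.68 ± 0.05, adjusted p = 3.99e-07) while *EPR1* did not pass (adjusted p = 0.401). The part of a shift between seed tissues in the changes above was not tested.

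**Figure D5:**
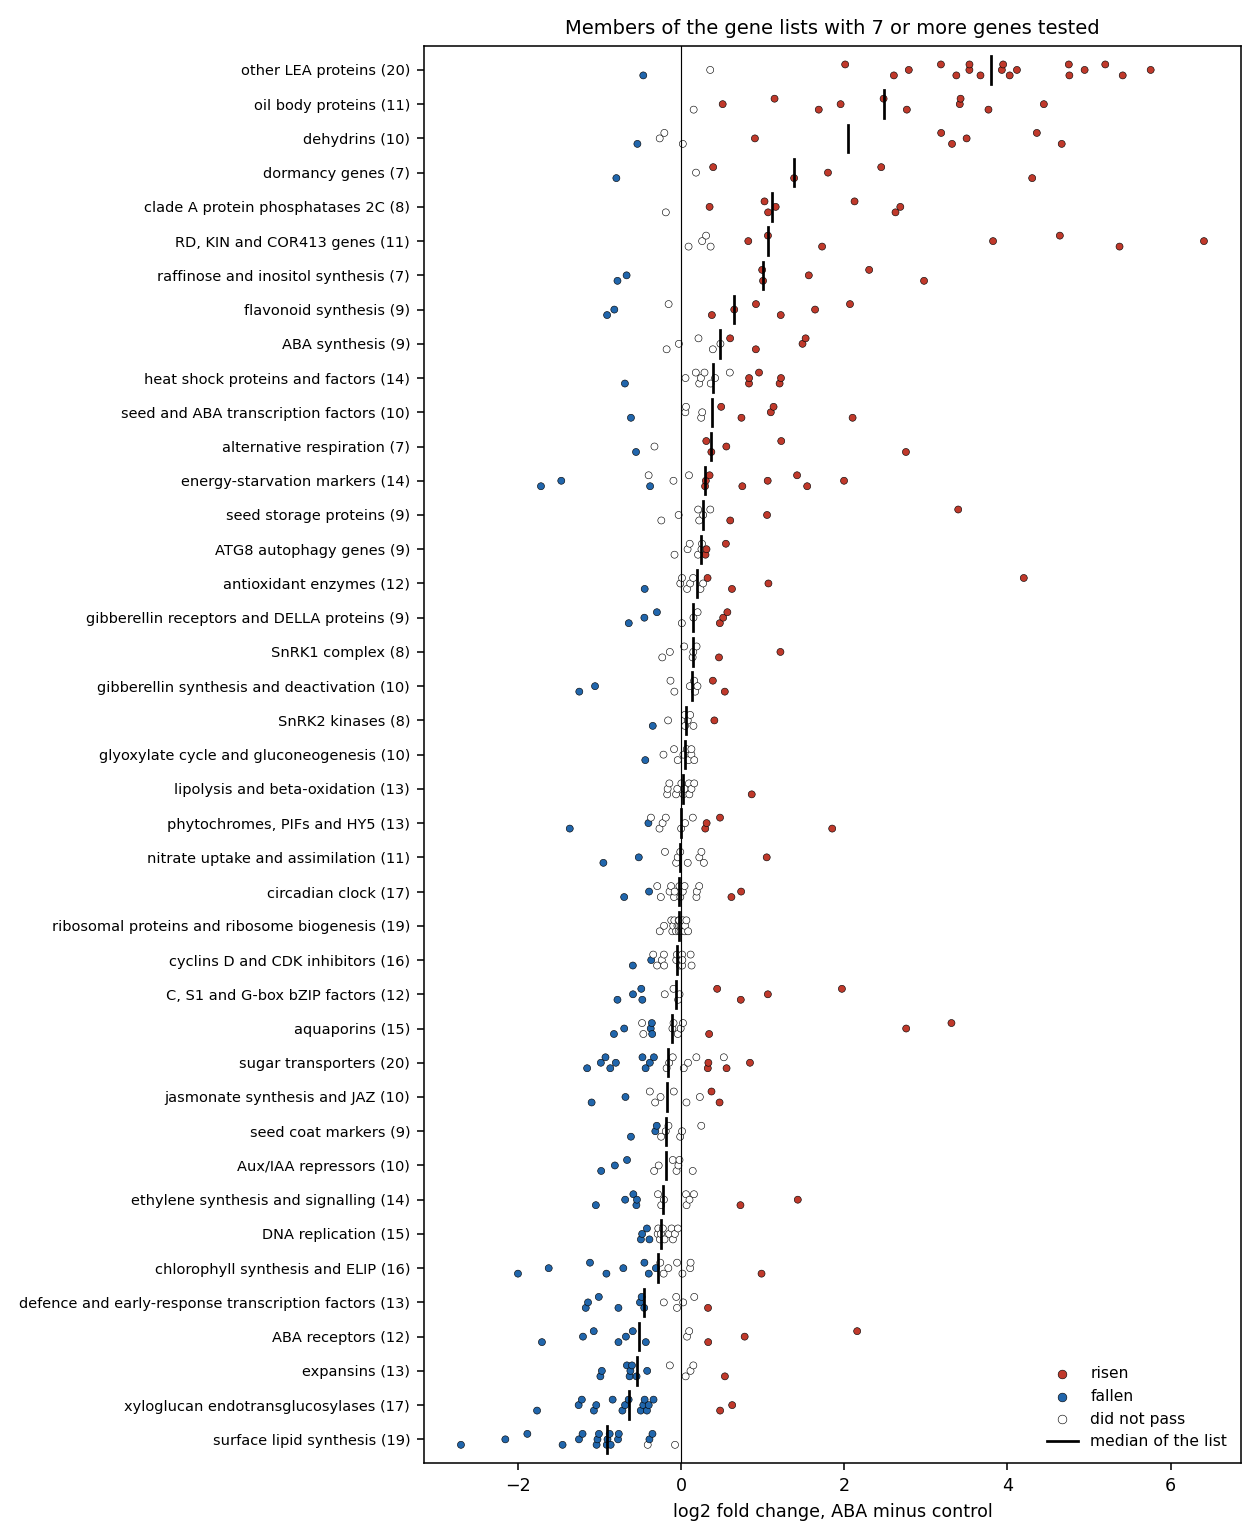
Log2 fold change, ABA minus control, of every tested member of the lists with 7 or more tested genes, 1 point per gene, red for risen, blue for fallen and open for those that did not pass, with a bar at the median of each list. Medians run from 3.80 for the LEA proteins other than dehydrins at the top to -0.91 for surface lipid synthesis at the bottom, and the number of genes tested stands after each name.

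Several of these genes were named by the study from these libraries, and their changes are no independent evidence of its reading. Of 24 such genes, all of them tested, 14 rose, 5 fell and 5 did not pass. Without ABA replicate 3 or at the same sum 12 rose.

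LEA genes led the gains in TPM. The sum of all values was 1032886 ± 25586 with ABA and 992660 ± 16336 in the control, a difference of 40226 (exact permutation test, two-sided, p = 0.0571, 4 against 4 libraries). The gains of all genes came to 97423 and the losses to -57197. The 10 largest gains held 24413 of this, and they were led by *LEA29*, *LEA7* and *LEA4-5*, while the 10 largest losses came to -5791 and were led by *CP1*, *EXPA1* and *SAG21*. *AT3G02480* and *AT5G66780*, LEA genes outside the list above, stood at 3000 ± 268 TPM with ABA and 336 ± 21.0 TPM in the control (3.16 ± 0.07) and 2326 ± 113 TPM with ABA and 261 ± 26.7 TPM in the control (3.16 ± 0.07). *AT2G01021*, the most abundant transcript of all and of no annotated function, held 23770.3, 20248, 19842 and 28111 TPM in the ABA libraries, against 17925, 23159, 19200.5 and 21508 TPM in the control libraries and did not pass (0.16 ± 0.12, adjusted p = 0.327). Its difference in means, 2545 TPM, is nevertheless counted among the 10 largest gains.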

How the data were processed

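Per the methods and the submitters' processing notes, mRNA libraries of *sweet1* seeds were prepared with a KAPA mRNA kit and sequenced as paired-end reads, which the authors trimmed with Trimmomatic 0.38 and quantified with kallisto 0.44.0 on primary transcripts. The instrument is given in different ways by the labels and the methods. The deposited values, headed TPM, were handled as a score, because the library sums differ and no source used here describes how the authors scaled them. Read depth is unknown, so no counting error was computed, and whether the counting used strand is not stated.

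From these values log2(TPM + 0.5) was fitted with limma 3.58.1 (R 4.3.3, trended prior variance) over the 4 ABA and 4 control libraries for genes over 0.5 TPM in at least 50% of them. A call needed a Benjamini-Hochberg adjusted p under 0.05 over all tested genes and a fold of 1.22, the minimum of the study, which is 0.2 as a natural log. The fit was tested on simulated data. Labels call the replicates biological. Comparisons of single values used exact permutation tests. Tables were handled with Python 3.11.15, pandas 2.3.3 and numpy 2.4.6.

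The members and the 50 gene lists were chosen with earlier results of these data known. Of 679 proposed list members 676 matched their locus, and *DOGL1*, *DOGL2* and *CLO2* were left out because the reference gives their identifiers other names. Genes named in the text are the 12 largest rises and falls of at least 10 TPM with no overlap between the groups. In each list they are up to 4 members with the largest called changes, every call against the majority and the most abundant member. They also include genes the study names, 10 genes in which ABA replicate 3 stood apart, 5 called only with or only without it, and the 10 largest gains and losses in TPM. Any other gene is said to be chosen after its values were seen. Promoters were read from RefSeq's TAIR10.1 for 27438 genes. Alternatives were leaving out each library, a replicate block, models with the glucose libraries, pseudocounts of 0.1 and 1, no filter or a filter of 10 TPM, scaling to a common sum and an untrended prior.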

Additional observations from a re-analysis of the deposited data

Results flagged for a closer look

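For each gene named in the report, the library sum and the plastid and mitochondrial shares, the 4 ABA and the 4 control values were looked at for a library whose gap to the nearest other library, as a share of the group's range, exceeded Dixon's critical value. This held in 19 of 412 groups, where chance gives about 1 in 20, and no explanation was weighed. The groups include genes that were named because ABA replicate 3 stood apart in them, so the count is no measure of that library.

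ABA replicate 3 stood apart in 6 genes, of which *RPL36* and *NDHH* had been chosen for this. It was high at 1614 TPM in *RPL36* (others 730.2 to 778.4), 38.79 TPM in *NDHH* (18.37 to 21.67), 14.64 TPM in *ADPG2* (11.4 to 11.87) and 7.42 TPM in *CESA5* (5.89 to 5.96). It was low at 14.2 TPM in *SWEET15* (17.79 to 18.51) and 2.59 TPM in *CYCB1;1* (3.62 to 3.81).

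Control replicate 3 was high in 3 seed maturation genes, at 212.3 TPM in *CRA1* (others 133.4 to 141), 60.26 TPM in *AT3G01570* (36.23 to 37.88) and 305.6 TPM in *AT2G47780* (278.4 to 279.6). In each of these the ABA libraries lay above it.

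ABA replicate 1 was high at 40.26 TPM in *CYP707A1* (35.42 to 36.13) and 34.1 TPM in *KIN1* (27.73 to 28.32), and ABA replicate 2 at 31.58 TPM in *XTH9* (28.41 to 28.94). ABA replicate 4 was high at 3397 TPM in *AT3G02480* (2834 to 2929) and 4.58 TPM in *NDA1* (3.6 to 3.72) and low at 46.53 TPM in *KING2* (49.13 to 49.57).

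Among the other control values, replicate 1 was high at 63.3 TPM in *WRKY18* (54.29 to 55.2) and low at 5.52 TPM in *EEL* (7.32 to 7.55). Control replicate 2 was high at 1.77 TPM in *AAO3* (1.43 to 1.47) and low at 2.38 TPM in *NDB2* (2.69 to 2.74).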

How the results depend on the processing

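Depth is unknown and the groups hold 4 libraries each, so small changes of weakly expressed genes could not be resolved. Over the 18 alternatives, the 230 called genes selected for naming gave 4054 values, of which 3890 kept their direction and call, 164 lost the call and 0 changed direction, and 198 of these genes kept their calls throughout. Among the 41 such genes that did not pass, 22 of 736 values passed. Leaving out 1 library gave 1656 to 1782 risen and 2038 to 2282 fallen genes. With a filter of 10 TPM, which left 10556 genes to test, 2480 genes changed, 1173 risen and 1307 fallen. Scaling to the same sum gave 1434 risen and 2838 fallen genes, and over nuclear genes alone 1406 and 2935, so that rises were 33.6% and 32.4% of the calls. The fits with 16 and 14 libraries gave 1744 and 1815 risen and 2237 and 2324 fallen genes. Other pseudocounts, no filter and an untrended prior gave 1750 to 1840 risen and 2256 to 2381 fallen genes. The cause of these differences was not tested beyond the number of genes or libraries used.

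With the replicate number as a replicate block 1774 genes rose and 2261 fell. Deviations of same-numbered ABA and control libraries correlated at 0.12, 0.07, -0.10 and -0.04, so the numbers were not treated as pairing the samples. Control replicates 1 and 2 correlated best with the ABA library of their own number, and control replicates 3 and 4 with ABA replicates 2 and 3 (0.13 and 0.11). The block took the calls of *GA2OX2* and *KRP7*.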
